A study of Mus musculus with 6 samples.

Results

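The annexins examined here were 9 mouse genes, Anxa1 to Anxa8 and Anxa11, taken by gene name from a table of 55420 gene rows. Each name had a single row. RNA was measured in 6 libraries of C2C12 cells, a line of mouse muscle precursors able to fuse into myotubes, 3 labelled WT and 3 labelled FHL3 KO. All were switched from fetal bovine to horse serum to differentiate and belong to day 4. FHL3 is a LIM-domain protein of striated muscle that the series title ties to fast glycolytic fibres and to the factor YY1. The labels name no clone, no knockout method and no separate cultures, so an effect of genotype and one of a clone cannot be told apart, and the spread that p-values rest on, that between 3 libraries a group, may be technical.

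Annexins are cytosolic proteins that bind acidic phospholipids when calcium rises. They share a core of repeated domains that carries the calcium sites, and differ in the N-terminal tail, where several of them bind S100 proteins. In muscle they are best known for gathering at tears of the sarcolemma, where they help to pull the wound edges together and form a repair cap along with dysferlin and the TRIM protein MG53.

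Fhl3 RNA was at 27.8, 30.03 and 33.7 FPKM across WT (a fragment level scaled to gene length and to library size). Under the FHL3 KO label it was at 57.2, 53.5 and 58.9 FPKM, so it rose (log2 change 0.87, limma adjusted p = 0.000547). A loss of this RNA was thus not seen. RNA does not measure FHL3 protein, so whether the protein was lost cannot be told from these values. Every direction below compares the FHL3 KO label with WT. Yy1 averaged 14.3 and 14.8 FPKM. The libraries separated by label, with correlations across genes of 0.977 to 0.991 within a group and 0.93 to 0.959 between groups. In WT replicate 1, 63 genes were above 1 FPKM and 10-fold over all remaining libraries, where the like count was 0 to 6, and it held liver transcripts such as Alb at 56.0 FPKM. Without that library each of the 6 annexins called below still passed the test.

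All 9 annexins were well expressed, and 6 of them were called as different between the groups. Of all tested genes 40.8% were called, and 47.6% of those averaging 50 FPKM or more. Anxa8 and Anxa11 more than doubled, Anxa7 rose slightly, and Anxa1, Anxa3 and Anxa4 fell to between 0.541 and 0.663 of their WT level. Anxa2, Anxa5 and Anxa6 did not pass the test. Changes were tested by limma on log2(FPKM + 1) over the 12528 genes whose mean reached 1 FPKM in either group, and a gene was called at a Benjamini-Hochberg adjusted p under 0.05. All 9 members passed that filter in both groups.

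**Figure D1:**
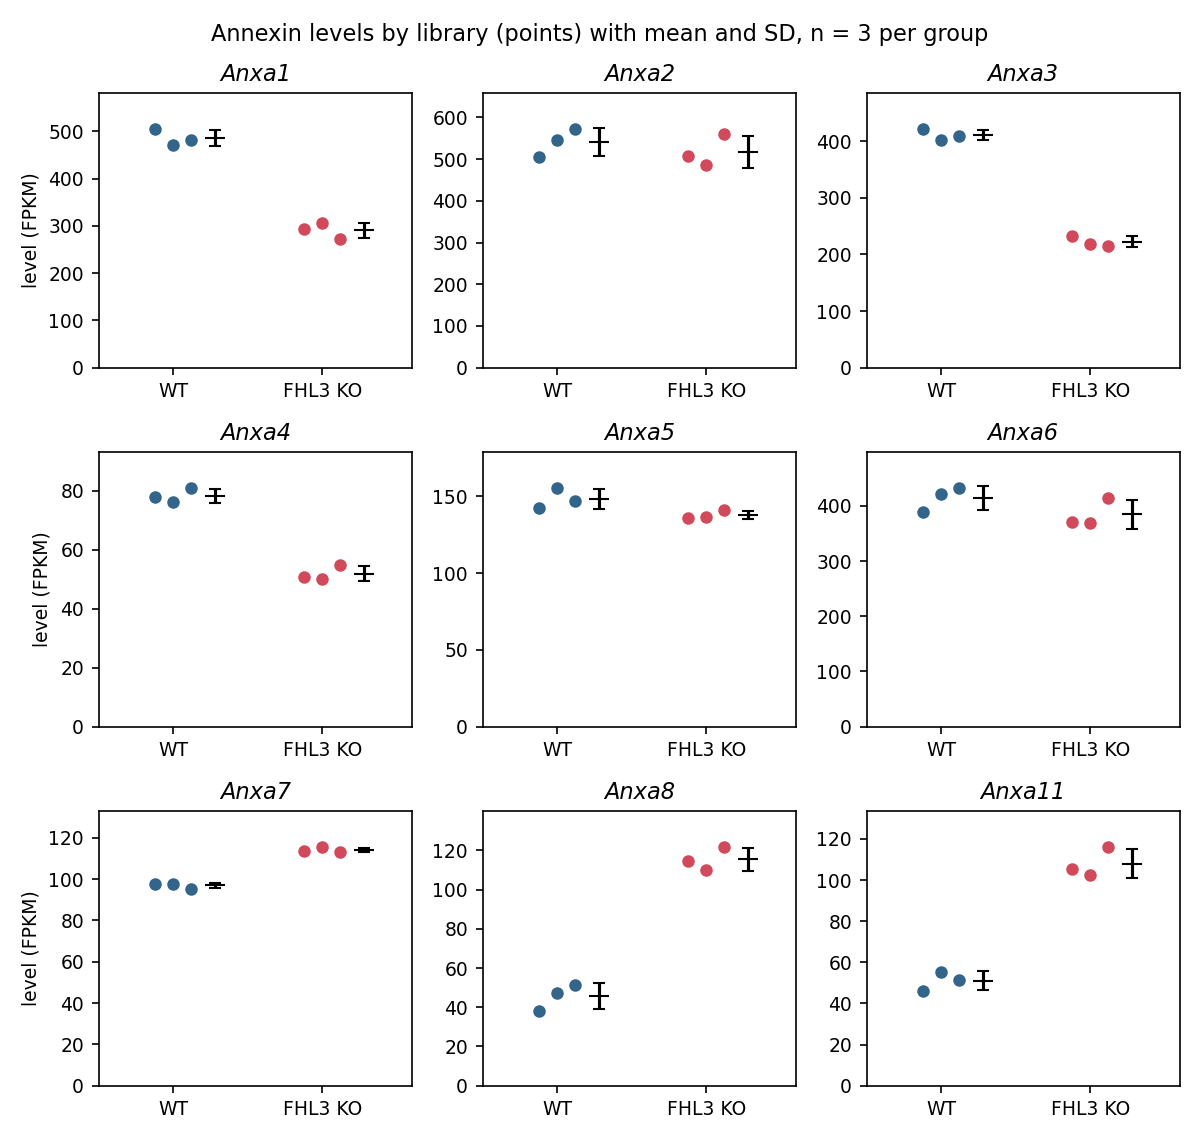
Level in FPKM (linear axis from 0, own scale in each panel) of each annexin in the 3 WT and 3 FHL3 KO libraries (points), with mean and SD in black. The groups are apart for Anxa1, Anxa3, Anxa4, Anxa5, Anxa7, Anxa8 and Anxa11, and overlap for Anxa2 and Anxa6. They are apart for 53.8% of all tested genes.

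Anxa8 and Anxa11 showed the largest rises of the family. Anxa8 (ENSMUSG00000021950, chromosome 14, 34085981 to 34100571, plus strand, GRCm38) encodes a calcium-dependent phospholipid binder best known from epithelia and placenta. Its level was 38.2, 47.4 and 51.2 FPKM across WT, against 114.7, 109.9 and 121.6 FPKM under the FHL3 KO label. The lowest of the latter was above the highest WT library by more than the spread within either group. Mean levels of 45.6 ± 6.7 and 115.4 ± 5.9 FPKM (SD over 3 libraries, as for each mean below) gave a 2.53-fold difference, with a log2 change of 1.33 (SE 0.12, 95% interval 1.06 to 1.598, limma adjusted p = 0.00025). Only 2.52% of tested genes changed by more in either direction on that scale. Anxa11 (ENSMUSG00000021866, chromosome 14, 25842156 to 25886804, plus strand) has a long proline-rich tail and is known for tethering RNA granules to lysosomes and for its part in cytokinesis. It was at 46.3, 55.4 and 51.6 FPKM across WT, against 105.5, 102.5 and 116.0 FPKM under the FHL3 KO label. Again the groups lay apart, with means of 51.1 ± 4.6 and 108.02 ± 7.1 FPKM, a 2.11-fold difference (log2 change 1.07, SE 0.093, limma adjusted p = 0.000258).

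The 250 bases upstream of the start annotated by RefSeq are shown for these 2 genes, which rose together, and for Anxa1, which fell, and Anxa2, which was not called. They are on GRCm38.p6, read 5′ to 3′ on the gene's strand, and the table held such windows for 7 of the 9 members, without Anxa3 and Anxa6. RefSeq starts can differ from the GENCODE gene positions given in this report. The Anxa1 window lay wholly inside the GENCODE bounds of that gene. The end of the Anxa2 window, from 69453620 on, lay inside the GENCODE bounds of Anxa2. Capitals mark matches, on either strand, to any of 7 short motifs. The E-box that MyoD and myogenin bind was searched only as CAGCTG, and the AP-1 motif, bound by Fos and Jun proteins, as TGANTCA. The letters CCATNTT stood for the factor YY1, which the series title names, and CATTCC for the TEAD factors of muscle and of Hippo signalling. The GC box of Sp factors was searched as GGGCGG and the TATA box of the basal machinery as TATAAA. For MEF2 the search took CTA, any 4 bases and TAG, a looser pattern than the usual site, whose middle holds only A and T.

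Anxa8, chr14:34085729-34085978, plus strand: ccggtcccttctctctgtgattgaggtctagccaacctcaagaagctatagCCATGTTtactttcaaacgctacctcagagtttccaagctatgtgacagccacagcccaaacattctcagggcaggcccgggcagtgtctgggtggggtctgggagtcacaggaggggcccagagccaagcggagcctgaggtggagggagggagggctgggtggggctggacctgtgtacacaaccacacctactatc
Anxa11, chr14:25841905-25842154, plus strand: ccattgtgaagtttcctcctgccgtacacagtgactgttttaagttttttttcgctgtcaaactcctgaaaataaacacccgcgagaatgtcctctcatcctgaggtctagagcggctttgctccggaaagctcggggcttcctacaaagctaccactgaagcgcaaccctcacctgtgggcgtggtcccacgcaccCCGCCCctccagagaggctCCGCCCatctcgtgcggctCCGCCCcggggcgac
Anxa1, chr19:20390672-20390921, minus strand: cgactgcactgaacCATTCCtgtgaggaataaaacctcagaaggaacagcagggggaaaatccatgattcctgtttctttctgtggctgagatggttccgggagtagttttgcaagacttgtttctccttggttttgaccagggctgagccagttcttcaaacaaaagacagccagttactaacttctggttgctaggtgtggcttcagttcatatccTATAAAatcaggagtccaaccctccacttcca
Anxa2, chr9:69453433-69453682, plus strand: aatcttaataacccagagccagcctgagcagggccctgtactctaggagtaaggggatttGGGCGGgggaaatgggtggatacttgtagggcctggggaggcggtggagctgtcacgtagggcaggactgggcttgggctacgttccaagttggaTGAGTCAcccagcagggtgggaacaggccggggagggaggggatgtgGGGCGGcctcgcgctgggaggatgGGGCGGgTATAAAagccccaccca

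The windows of the genes that rose together differed in CG count and in motif matches. Their share of G and C was the same, 58.0%, beside a median of 52.4% over all windows. Anxa11 held 3 GC boxes, starting 53, 34 and 15 bases before the start site, and 17 CG dinucleotides, against a median of 6 over all 32851 windows of that length. Anxa8 held 4 CG dinucleotides and a single match, to the YY1 letters, 199 bases before the start. Of all windows 12.4% held those YY1 letters and 32.7% at least 1 GC box, so a single match to either is not rare. The share of windows with 3 GC boxes was not counted. Anxa1 held 2 CG dinucleotides, a TEAD match at 236 bases and a TATA box at 32 bases before the start (12.6% and 12.4% of all windows). Anxa2 held an AP-1 match at 95 bases (6.75% of all windows), 3 GC boxes and a TATA box at 17 bases. The letters CAGCTG occurred in 1 window of a member, the downstream one of 2 annotated for Anxa4 (13% of all windows). Other forms of the E-box, such as CACCTG, which the Anxa11 window holds, were not searched. The MEF2 letters occurred in none of the members' windows (3.2% of all windows). No printed matches overlapped, and a match describes letters, not binding.

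Anxa7, the other member that rose, did so by little. It encodes synexin (ENSMUSG00000021814, chromosome 14, 20455260 to 20480133, minus strand), an annexin with a long hydrophobic tail that was first known for joining secretory granules. Its level was 97.7, 97.8 and 95.4 FPKM across WT, against 113.8, 115.4 and 113.1 FPKM under the FHL3 KO label. The groups did not overlap, and the spread within each was small. The means of 97.0 ± 1.3 and 114.1 ± 1.2 FPKM differed 1.18-fold (log2 change 0.23, SE 0.067, limma adjusted p = 0.0271). This call ended when each library was scaled to the same sum (log2 change 0.12, adjusted p = 0.255), after quantile normalization (0.08, adjusted p = 0.46), and on leaving out any library except WT replicate 1 (adjusted p of 0.0525 to 0.0967).

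Anxa1, Anxa3 and Anxa4 fell. Anxa1 (ENSMUSG00000024659, chromosome 19, 20373428 to 20390944, minus strand) is the glucocorticoid-induced annexin whose secreted form acts on formyl peptide receptors to limit inflammation, and it also gathers at muscle membrane wounds. It was at 504.4, 470.9 and 481.8 FPKM across WT, against 293.9, 305.2 and 273.03 FPKM under the FHL3 KO label. The groups lay far apart relative to their SDs. The means were 485.7 ± 17 and 290.7 ± 16 FPKM (log2 change -0.74, SE 0.085, limma adjusted p = 0.000792). Anxa3 (ENSMUSG00000029484, chromosome 5, 96793339 to 96845966, plus strand), an annexin first described as an inhibitor of phospholipase A2, had the largest fall of the family. Its level was 420.9, 402.2 and 409.1 FPKM across WT, against 233.1, 217.7 and 215.4 FPKM, with means of 410.7 ± 9.5 and 222.1 ± 9.6 FPKM (log2 change -0.88, SE 0.079, limma adjusted p = 0.000275). Of tested genes, 9.05% changed by more than Anxa3 in either direction. Anxa4 (ENSMUSG00000029994, chromosome 6, 86736840 to 86793584, minus strand), known for ordering membranes in secretory epithelia, was at 77.98, 76.1 and 80.8 FPKM across WT, against 50.9, 50.1 and 54.7 FPKM under the FHL3 KO label. These libraries too lay wholly below WT, with means of 78.3 ± 2.4 and 51.9 ± 2.5 FPKM (log2 change -0.59, SE 0.073, limma adjusted p = 0.00108).

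Anxa2, Anxa5 and Anxa6, all among the annexins that gather at sarcolemma wounds, did not pass the test, and their intervals bound the change rather than show equality. Anxa2 (ENSMUSG00000032231, chromosome 9, 69453620 to 69491795, plus strand), which pairs with S100A10 and links membranes to actin, was at 504.2, 546.9 and 571.7 FPKM across WT, against 508.7, 484.9 and 559.8 FPKM under the FHL3 KO label. The groups overlapped, and the 95% interval of the log2 change of -0.06 ran from -0.29 to 0.17 (limma adjusted p = 0.631). Anxa6 (ENSMUSG00000018340, chromosome 11, 54979108 to 55033445, minus strand), whose core is duplicated and which modifies muscular dystrophy in mice, was at 389.8, 422.5 and 432.04 FPKM across WT, against 370.1, 369.5 and 414.3 FPKM. These groups overlapped through the replicate 3 labelled FHL3 KO, and the interval ran from -0.32 to 0.10 (log2 change -0.11, limma adjusted p = 0.368). Anxa5 (ENSMUSG00000027712, chromosome 3, 36448923 to 36475894, minus strand), the phosphatidylserine binder used to stain dying cells, was at 142.2, 155.2 and 146.8 FPKM across WT, against 136.04, 136.3 and 140.8 FPKM. Its groups did not overlap, but the log2 change of -0.10 had an interval from -0.27 to 0.07 and an adjusted p of 0.289. After quantile normalization all 3 were called lower, at log2 changes of -0.33 for Anxa2 (limma adjusted p = 0.0159), -0.38 for Anxa6 (0.0112) and -0.26 for Anxa5 (0.036).

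**Figure D2:**
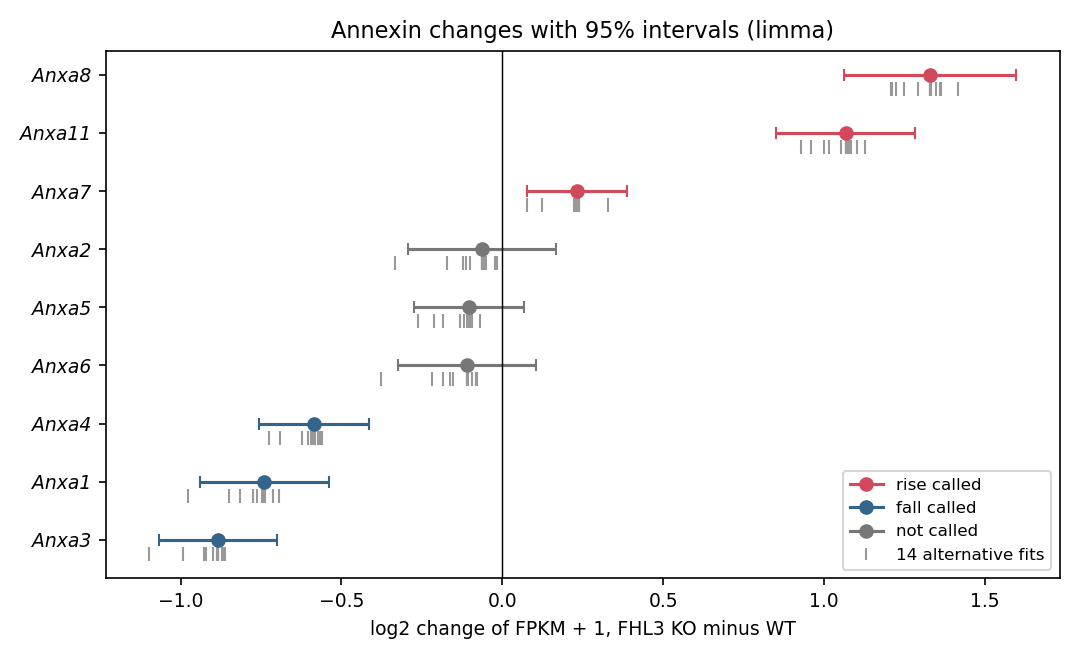
Log2 change of FPKM + 1 (FHL3 KO minus WT) of each annexin with its 95% interval from limma, coloured by call, and the values under 14 alternative fits as grey ticks. Anxa8 at 1.33 and Anxa3 at -0.88 lie at the ends, and the ticks of no member cross 0.

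The counts of calls among the annexins are set beside those of all genes as a description, with no test. Of the 9 members, 3 were called as rises and 3 as falls, where 40.8% of all tested genes were called, 19.7% as rises and 21.2% as falls. Among the 1538 tested genes averaging 50 FPKM or more, as all members did, 47.6% were called, 36.0% as rises and 11.6% as falls. The groups did not overlap for 3 members that were higher and 4 that were lower, against 26.9% and 26.9% of all tested genes, 53.8% in all. Among the 1538 genes averaging 50 FPKM or more, 45.4% were higher and 14.6% lower without overlap, 60.1% in all. The members' median log2 change was -0.10, beside -0.01 over all tested genes.

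The family's summed level was lower under the FHL3 KO label and its make-up shifted from Anxa1 and Anxa3 towards Anxa8 and Anxa11. The 9 genes together reached 2222, 2274 and 2320 FPKM across WT, against 1927, 1892 and 2009 FPKM under the FHL3 KO label. As a share of all FPKM this was 0.506% ± 0.016 and 0.400% ± 0.0054 (SD, n = 3 each). Within the family the share of Anxa1 was 21.4% ± 1.1 in WT and 15.0% ± 1.3 under the FHL3 KO label, and that of Anxa3 18.1% ± 0.74 and 11.4% ± 0.69. The share of Anxa8 was 2.003% ± 0.25 and 5.94% ± 0.12, and that of Anxa11 2.25% ± 0.18 and 5.56% ± 0.19. Anxa2 held the largest mean share in both groups, at 23.8% ± 0.995 and 26.6% ± 1.1. A share also moves when other members change, as that of Anxa2 did here.

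**Figure D3:**
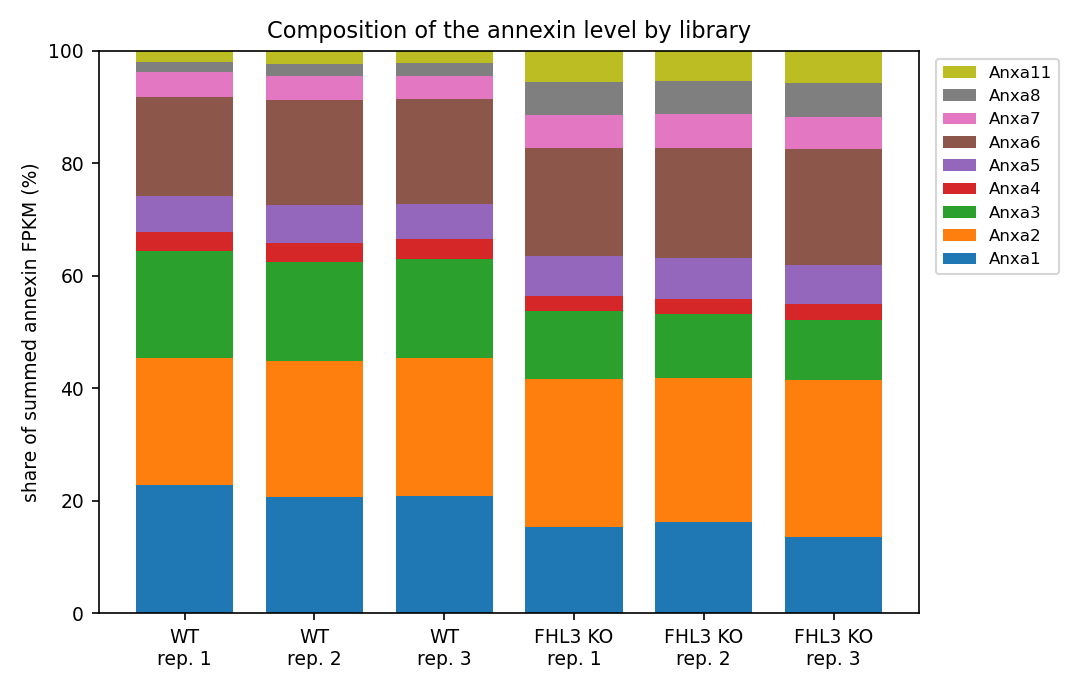
Share in percent of each annexin in the summed FPKM of the 9 genes, 1 bar per library, 3 WT and 3 FHL3 KO. The bands of Anxa8 and Anxa11 at the top widen from 2.003% and 2.25% to 5.94% and 5.56% on average, and those of Anxa1 and Anxa3 narrow.

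The order of the levels, which can be compared because FPKM is per length, changed with these shifts. In WT it ran from Anxa2 and Anxa1 through Anxa6 and Anxa3 to Anxa5, Anxa7, Anxa4, Anxa11 and Anxa8, and the library values overlapped between Anxa2 and Anxa1, between Anxa6 and Anxa3, and between Anxa11 and Anxa8. In the libraries labelled FHL3 KO it ran Anxa2, Anxa6, Anxa1, Anxa3, Anxa5, Anxa8, Anxa7, Anxa11 and Anxa4, where the library values of Anxa8, Anxa7 and Anxa11 overlapped one another and those of the other neighbours in the order did not. Anxa1 thus stood at 0.901 ± 0.086 of the Anxa2 level in WT and at 0.565 ± 0.072 in the other group (SD, n = 3 each). Anxa8 stood at 0.308 ± 0.040 of the Anxa5 level in WT and at 0.838 ± 0.029 under the FHL3 KO label.

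The 3 annexins that rose share chromosome 14, where Anxa7 lies 5.39 Mb from Anxa11 and Anxa11 8.24 Mb from Anxa8. Of the 434 tested genes of that chromosome, 36.9% were called, 20.5% as rises and 16.4% as falls, beside 19.7% and 21.2% over all tested genes. Groups did not overlap for 29.7% of them that were higher and 23.0% that were lower, 52.8% in all. Of the 12 nearest tested neighbours of these 3 genes, 2 on each side, 2 rose and 0 fell: Mrps16, a mitochondrial ribosomal gene near Anxa7 (log2 change 0.68), and Ppif, the cyclophilin of the mitochondrial pore, near Anxa11 (0.33). The nearest tested genes of Anxa8, at 70.1 kb and 638.8 kb, were not called. Around all 9 members 5 of 36 such neighbours rose and 5 fell, Gpx3 near Anxa6 at a log2 change of -3.96 among them. Genes that overlap a member in the annotation were at most 1.04 FPKM in any library, the antisense Anxa11os at most 0.059 FPKM and A630023A22Rik, which spans Anxa8 on the opposite strand, at most 0.62 FPKM. The other annexins of the mouse were near 0, with Anxa9 between 0.42 and 0.90 FPKM, Anxa13 at most 0.19 FPKM and Anxa10 listed at 0 in every library.

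The S100 genes, some of whose products bind annexin tails, included 2 that fell and none that rose. Of 13 genes of an S100 list, which also holds S100pbp, 10 passed the filter, with a median log2 change of -0.47. Of all tested genes 19.7% rose and 21.2% fell. S100a11, the partner of annexin A1, was at 735.3, 886.3 and 877.9 FPKM across WT, against 539.9, 457.9 and 624.5 FPKM under the FHL3 KO label. The groups were apart, and the mean fell from 833.2 ± 85 to 540.8 ± 83 FPKM (log2 change -0.63, limma adjusted p = 0.0109). With no filter its adjusted p was 0.0513, and without WT replicate 2 it was 0.0504, which ended the call. S100a14 fell from 1.02 ± 0.11 to 0.42 ± 0.094 FPKM (limma adjusted p = 0.015), and this ended after quantile normalization (0.113) and without WT replicate 2 (0.0661). S100a10, the partner of annexin A2, was at 411.9, 476.7 and 556.8 FPKM across WT, against 430.1, 340.1 and 486.2 FPKM. Its groups overlapped as those of Anxa2 did (log2 change -0.21, limma adjusted p = 0.338).

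The remaining S100 genes did not pass the test. S100a6, which binds annexin A11 among others, was at 567.2, 744.9 and 843.2 FPKM across WT, against 480.7, 274.8 and 639.3 FPKM, a log2 change of -0.69 with an SE of 0.30 (limma adjusted p = 0.102). S100a4, S100a3 and S100a13 had log2 changes of -0.43, -0.54 and -0.67 (adjusted p = 0.0885, 0.0532 and 0.105), S100a1 and S100a16 of 0.20 and 0.19 (0.183 and 0.208), and S100pbp, which encodes a binder of an S100 protein, of -0.13 (0.398). Each of S100a3, S100a4, S100a6, S100a13 and S100a10 was called lower under at least 1 alternative fit, S100a10 only after quantile normalization. The list's count of calls was 0 without WT replicate 2, and 5 on leaving out FHL3 KO replicate 3, with the libraries scaled to the same sum, or with the trend with gene length removed. In ratio, Anxa1 stood at 0.589 ± 0.085 of S100a11 in WT and 0.549 ± 0.11 under the FHL3 KO label, and Anxa2 at 1.13 ± 0.10 and 1.25 ± 0.15 of S100a10. Anxa11 stood at 0.072 ± 0.010 and 0.258 ± 0.10 of the S100a6 level (SD, n = 3 each).

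Other genes of membrane repair moved in both directions. Of 24 listed genes 21 were tested, 9 rose and 4 fell, where 19.7% of all tested genes rose and 21.2% fell. Among tested genes averaging 50 FPKM or more, as many of the listed genes did, 36.0% rose and 11.6% fell. The list's median log2 change was 0.22, beside -0.01 over all tested genes. Cav3, the muscle caveolin, rose from a mean of 32.4 ± 4.1 to 97.3 ± 3.6 FPKM, and Cavin4, its muscle cavin, from 114.7 ± 5.7 to 175.3 ± 12 FPKM (limma adjusted p = 8.8e-05 and 0.00163). Trim72, which encodes MG53, rose from 103.2 ± 14 to 180.6 ± 27 FPKM (adjusted p = 0.00418). Ano5, a membrane protein mutated in limb-girdle dystrophy, was at 19.6, 15.8 and 12.5 FPKM across WT, against 1.89, 3.17 and 2.29 FPKM, with no overlap (log2 change -2.29, limma adjusted p = 0.000218). Ahnak, the giant scaffold that binds dysferlin and the annexin A2 complex, fell from 92.6 ± 12 to 40.6 ± 6.3 FPKM (adjusted p = 0.000801). Dysferlin itself, Dysf, averaged 12.8 ± 0.62 and 15.1 ± 0.49 FPKM and did not pass (adjusted p = 0.059). Dysf and Trim72 were named after their values were seen.

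Genes of scramblases and phosphatidylserine exposure, which set how much of the annexins' lipid ligand faces outward, were mostly called. Of 15 listed 10 were tested, 1 rose and 6 fell, beside 19.7% and 21.2% of all tested genes, with a median log2 change of -0.41. Ano6, a calcium-activated scramblase, fell from 48.2 ± 5.8 to 31.5 ± 3.9 FPKM, Tmem30a, the shared subunit of the flippases, from 44.0 ± 6.9 to 22.2 ± 3.5 FPKM, and Plscr4 from 3.64 ± 0.52 down to 1.33 ± 0.12 FPKM (limma adjusted p = 0.00703, 0.00249 and 0.00115). Among 14 other proteins that bind phospholipids with calcium, through C2 domains, 10 were tested, 2 rose and 4 fell, against the same background, with a median of -0.30. The copine Cpne8 fell from 5.99 ± 1.1 to 1.70 ± 0.11 FPKM, the membrane tether Esyt1 from 115.6 ± 4.7 to 78.7 ± 2.1 FPKM and the phospholipase Pla2g4a from 4.93 ± 0.32 to 2.93 ± 0.24 FPKM, while the copine Cpne2 rose from 12.5 ± 0.65 to 19.2 ± 0.41 FPKM. For these 4 genes limma gave adjusted p = 0.000509, 0.00132, 0.00414 and 0.00152.

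Of 14 genes around the plasminogen system and the cell surface 12 were tested, 1 rose and 2 fell, beside 19.7% and 21.2% of all tested genes, with a median log2 change of -0.03. Plat, the tissue plasminogen activator for which the annexin A2 complex acts as a docking site, fell from 40.4 ± 1.7 to 15.6 ± 0.76 FPKM (limma adjusted p = 5.37e-05). The hyaluronan receptor Cd44 fell from 290.8 ± 46 to 180.9 ± 15 FPKM (adjusted p = 0.00602). The urokinase receptor Plaur rose from 14.5 ± 2.1 to 21.02 ± 2.8 FPKM (adjusted p = 0.0195), a call that ended with no filter (0.0645), without WT replicate 1 (0.058), without WT replicate 2 (0.0563) and on leaving out FHL3 KO replicate 3 (0.0568). Actn4, an actin crosslinker, averaged 120.3 and 105.6 FPKM (adjusted p = 0.0908). Fpr1 and Fpr2, the receptors for annexin A1, were at most 0.11 FPKM.

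Of 12 genes of the penta-EF-hand proteins that bind the tails of annexins A7 and A11, and of the ESCRT membrane-cutting machinery, 11 were tested, 1 rose and 2 fell, beside 19.7% and 21.2% of all tested genes, with a median log2 change of 0.02. Chmp4c, an ESCRT-III subunit, fell from 2.35 ± 0.15 to 0.42 ± 0.070 FPKM (limma adjusted p = 0.00033). Vps4a rose and Vps4b fell, both ATPases that take ESCRT filaments apart, at log2 changes of 0.28 and -0.44 (adjusted p = 0.0469 and 0.0251), and both calls ended without a filter, after length correction and without any of 4 single libraries that they share. Pdcd6, a partner of annexins A7 and A11, averaged 35.1 ± 3.0 and 41.5 ± 3.2 FPKM (adjusted p = 0.0821). Sorcin, Sri, which binds annexin A7, averaged 19.95 ± 0.58 and 17.8 ± 0.091 FPKM (adjusted p = 0.124, named after its value was seen).

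**Figure D4:**
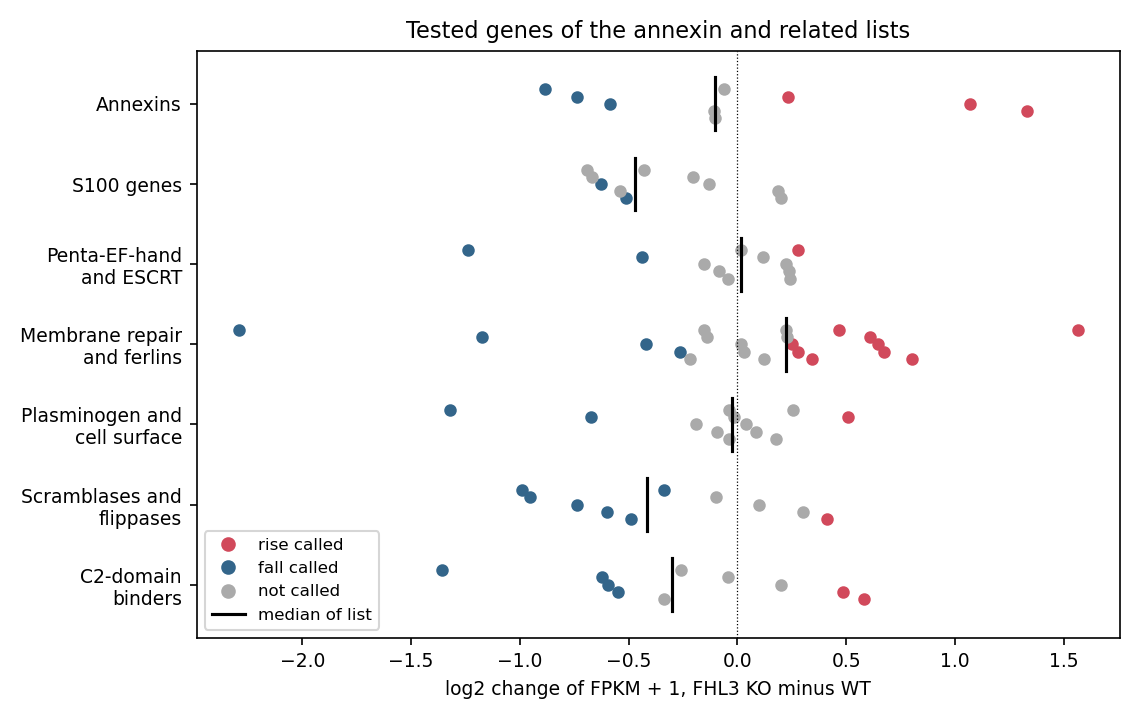
Log2 change of FPKM + 1 (FHL3 KO minus WT) of every tested gene of the annexins and 6 related lists, coloured by call, with each list's median as a black bar. The medians run from -0.47 for the S100 genes to 0.22 for membrane repair, and the annexins spread from -0.88 to 1.33 around -0.10.

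The genes whose profile over the 6 libraries was nearest to that of Anxa8, by the root mean square difference of centred log2(FPKM + 1) among 8545 genes averaging 5 FPKM or more, were Tekt5 (a tektin of cilia and sperm tails, difference 0.057), Tmem141 (0.067) and Trim63 (0.073). Trim63, the muscle ubiquitin ligase MuRF1, averaged 13.5 ± 1.2 and 33.9 ± 1.6 FPKM. Nearest to Anxa3 were Cpe, a carboxypeptidase of secretory granules (0.028, with means of 68.1 ± 3.6 and 35.96 ± 1.5 FPKM), Phf13 (0.044) and Gpr137b (0.057).

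Markers of cell state and of other cell types were read beside these values. Of all tested genes 19.7% rose and 21.2% fell, and of those averaging 50 FPKM or more 36.0% rose and 11.6% fell. Of 9 markers of differentiated muscle 8 rose and 0 fell, and their summed level was 4576 to 5194 FPKM across WT, against 10579 to 11108 FPKM under the FHL3 KO label. Of 6 tested markers of undifferentiated or cycling myoblasts 3 fell (Myf5, Mki67 and Top2a) and 1 rose (Ccnb1), with sums of 140.3 to 167.4 and 114.6 to 131.5 FPKM. Of 6 tested fibroblast markers 3 fell (Dcn, Postn and Col3a1) and 1 rose (Col1a1), with sums of 559.8 to 627.3 and 287.6 to 324.6 FPKM, while Thy1 was at 0 in every library and Lum at most 0.11 FPKM. Their part in the annexin changes was not tested, and in bulk RNA fewer cells of a type and less RNA per cell cannot be told apart. The summed levels of 7 immune, 4 endothelial and 4 adipocyte markers were at most 2.62, 1.25 and 0.067 FPKM in any library. Of 4 epithelial markers only Cdh1 was tested and rose, from at most 0.052 FPKM to between 0.969 and 1.51 FPKM, and Epcam was at 0 in every library. Krt8 and Krt18, both under the filter, went the other way in their means, which were 0.49 and 0.24 FPKM in WT. Under the FHL3 KO label they averaged 0.12 and 0.017 FPKM. Both were highest in WT replicate 1, at 1.03 and 0.71 FPKM. Krt18 was at 0 in the remaining WT libraries, so its direction rests on that library. By exact permutation over the libraries, two-sided, p was 0.1, the lowest possible with 3 against 3, for each of the 6 called annexins and for Anxa5, p = 0.5 for Anxa2 and p = 0.2 for Anxa6.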

How the data were processed

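RNA-seq of 6 C2C12 libraries was compared, 3 per label. The submitters' processing notes name DESeq2 1.28.1, featureCounts 2.0.1, HISAT2 2.2.1, Trim Galore 0.6.6 and the build mm10, without roles. The sources used here give no annotation, strand setting or normalization. Deposited by the authors, the table holds decimals without a named unit, read as FPKM: column sums differ (425080 to 494176), and in low single-exon genes FPKM times length piled up at a value of 0.048 to 0.056 by library (122 to 167 genes), at 0.5 times it (101 to 141) and at 2 times it (70 to 92), against 11 to 24 genes at 1.3 times. If the first value is a fixed number of fragments, relative depths were 0.857 to 1. Absolute depth is unknown, so no counting interval is given.

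Rows sharing a repeated gene ID (7) were left out. Gene positions and lengths are from GENCODE M21 (GRCm38, which mm10 names), which holds 94% of the IDs, while the upstream windows follow RefSeq starts. Genes whose mean reached 1 FPKM in either group were fitted as log2(FPKM + 1) with limma 3.58.1 in R 4.3.3 (two-sided moderated test with trend, no covariates, Benjamini-Hochberg over 12528 genes), and the steps were tested on simulated data. Fold changes on that scale understate changes of low genes. Alternatives were a pseudocount of 0.1, no filter or one at 5 FPKM, 3 other scalings, a length spline, a replicate block, omission of single libraries and a threshold of 0.01. Members and lists were chosen with earlier results of these data known. Named were all members and tested S100 genes, the 4 genes of each other list with the smallest p, Fhl3, Yy1, and the 3 genes nearest in profile to the members with the largest rise and fall. Neighbours, markers and genes said to be so were named outside that rule. A gene that this rule names is not reported here.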

Additional observations from a re-analysis of the deposited data

How the results depend on the processing

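The calls of Anxa1, Anxa3, Anxa4, Anxa8 and Anxa11 held in each of the 14 alternative fits and at an adjusted p of 0.01, with the same direction, while the number of annexins called ran from 5 to 8, with 8 after quantile normalization. No annexin changed sign. The calls over all 12528 genes ran from 3276 (without WT replicate 2) to 5289 when single libraries were left out, and were 2695 at a threshold of 0.01. At that threshold 20 of 74 tested genes of the related lists were called, against 34. With each library scaled to the same sum 1687 genes rose and 2962 fell, so 36.3% of calls were rises against 48.2%, and the median of all genes was -0.10 on the log2 scale. The log2 change of Yy1, not called in any fit, was -0.057 with that scaling and ran from -0.026 (without the replicate 2 labelled FHL3 KO) to 0.087 when single libraries were left out, and was -0.017 without WT replicate 3. The log2 change of S100pbp, not called in any fit either, was 0.092 after length correction. The cause was not tested. Same-numbered libraries of the groups did not deviate together more than others (correlations of -0.13, -0.06 and 0.32). Those between libraries of unlike number ran from -0.38 to 0.37, so the numbers were not taken as pairs. With the replicate block 4759 genes and 5 annexins were called, and Anxa7 was not (limma adjusted p = 0.0705). Absolute depth is unknown, so its limits could not be stated.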
